A study of Mus musculus with 12 samples.

Results

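Tenascins, thrombospondins, periostin, Sparcl1 and Smoc2 are matricellular proteins, secreted glycoproteins that sit in the extracellular matrix and alter how cells attach and signal rather than forming the bulk of the tissue. Here 10 of their genes were examined in sternal cartilage, out of 22180 genes with a probe set of their own: the tenascins Tnc, Tnn and Tnxb, the thrombospondins Thbs1, Thbs2, Thbs3 and Thbs4, and the genes of periostin (Postn), Sparcl1 and Smoc2. Each was taken by its symbol in the platform's annotation. Where several probe sets named the same gene, the one with the highest mean over the 12 arrays was to be used. Each of the 10 genes had 1 probe set, so no probe set was chosen by a measured value. The genes themselves were chosen with earlier results of these arrays known. TIMPless mice are whole-body knockouts of Timp1, Timp2, Timp3 and Timp4, the genes of the tissue inhibitors of metalloproteases. WT mice carried none of these altered alleles. The sternal cartilage of 6 TIMPless mice and 6 WT mice, all untreated, C57BL/6J and 4 weeks old, was dissected without the xiphoid process and its RNA hybridised to Affymetrix Mouse Gene ST arrays, 1 for each mouse. The values are log2 array intensities, so that a difference of 1 is a doubling, and levels of different genes are not set against each other because probes differ in brightness.

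Tenascins are large oligomeric glycoproteins with fibronectin-type repeats. Tenascin-C marks growing and healing connective tissue, tenascin-W (Tnn) is found in bone and periosteum, and tenascin-X (Tnxb) binds collagen fibrils, its loss in humans causing a form of Ehlers-Danlos syndrome. Thrombospondin-1 and thrombospondin-2 form trimers that restrain vessel growth through the receptor CD36, and thrombospondin-1 can activate latent TGF-beta. Thrombospondin-3 and thrombospondin-4 form pentamers, as does cartilage oligomeric matrix protein (Comp), the thrombospondin of cartilage and tendon. Periostin is made in periosteum and ligament and promotes collagen crosslinking, whereas Sparcl1 and Smoc2 are calcium-binding relatives of Sparc (osteonectin). Many matricellular proteins are cut by the metalloproteases that TIMPs inhibit, but RNA arrays do not measure that.

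The 4 Timp genes gave lower values in TIMPless cartilage, with log2 changes (TIMPless minus WT, here and throughout) of -0.87 for Timp1, -1.62 for Timp2, -1.27 for Timp3 and -1.66 for Timp4. Timp1 values overlapped between the genotypes, and without WT replicates 5 and 6 its change was -0.74 (adjusted p = 0.114, limma). Whether the probes lie inside the altered parts of these genes was not examined. Array medians were 6.15 to 6.20, and all 10 genes lay above the array median on all 12 arrays. Neither the labels nor the methods read here give the animals' sex. Xist lay at 5.17 to 5.34 in WT replicates 5 and 6 and at 11.91 to 12.22 in the other 10 mice, and Y-linked Eif2s3y at 9.06 to 9.20 in WT replicates 5 and 6 and at 3.50 to 3.99 in the other 10, so the genes among the 10 that passed the threshold or came near it are also given without these WT mice. The mean of 10 chondrocyte markers, 11.21 ± 0.17 in TIMPless and 11.37 ± 0.18 in WT (SD, n = 6 mice each), lay above the array median on every array.

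RNA markers of some other tissues in the dissected pads differed between the genotypes. The mean of 11 skeletal muscle markers ranged from 7.89 to 9.02 in TIMPless mice and from 9.02 to 10.52 in WT mice (2-sided exact permutation p = 0.00216, which is as small as 6 against 6 can give), and 8 of the 11 genes were called lower in TIMPless. The mean of 8 adipocyte markers ranged from 7.76 to 8.32 in TIMPless mice and from 8.53 to 9.56 in WT mice (exact permutation p = 0.00216), with 7 of the 8 called lower in TIMPless and Lep below the array medians. The mean of 8 osteoblast and osteocyte markers was 9.53 to 9.78 in TIMPless and 8.63 to 9.47 in WT (exact permutation p = 0.00216). Of the 8, only the osteocyte genes Dmp1 and Mepe were called, with log2 changes of 1.58 and 1.57, and the median over the list was 0.13, with Sp7 at -0.10 and Sost at -0.33. The mean of 11 tendon and fibroblast markers was 8.60 ± 0.23 in TIMPless and 8.86 ± 0.19 in WT (exact permutation p = 0.0584), with 1 of the 11 called lower. By the rule for calls given below, 0.875% of all genes were called higher and 1.43% lower in TIMPless. Neutrophil, endothelial and macrophage marker means gave exact permutation p values of 0.165, 0.208 and 0.221. Smooth muscle and keratinocyte means gave exact permutation p values of 0.506 and 0.524, the keratinocyte mean lying below the array median on every array. In such bulk tissue, fewer cells of a type and less RNA per cell cannot be told apart.

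In TIMPless cartilage, tenascin-W (Tnn) was higher, tenascin-X (Tnxb) was lower and thrombospondin-1 (Thbs1) was lower than in WT, whereas the other 7 genes were not called. A gene was called if it had both an adjusted p under 0.05 (limma, over all 41345 probe sets) and at least a 1.5-fold difference. Of all genes, 2.3% were called by this rule, 0.875% higher and 1.43% lower in TIMPless, as were 1.61% of all probe sets. The 10 genes were not selected on a threshold of the genotype difference, but were chosen with earlier results of these arrays known, so their 3 calls are a description and nothing is read from the count against that background. The plot of values by mouse shows the 10 genes side by side. By the adjusted p alone 4 genes passed (Tnn, Tnxb, Thbs1 and Thbs3), as did 4.93% of all genes. The same 4 genes had no overlap between the genotypes, 1 higher and 3 lower in TIMPless, and of all genes 4.92% had none, 1.9% higher and 3.02% lower. The median log2 change of the 10 genes was 0.03, against 0 over all genes, since 5 means were higher and 5 lower in TIMPless. The median size of change regardless of sign was 0.51 against 0.11. The 0.11 covers all genes, dim ones included, whereas each of the 10 lay above the array medians. With the 10 genes chosen as stated, nothing is read from this difference either.

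**Figure D1:**
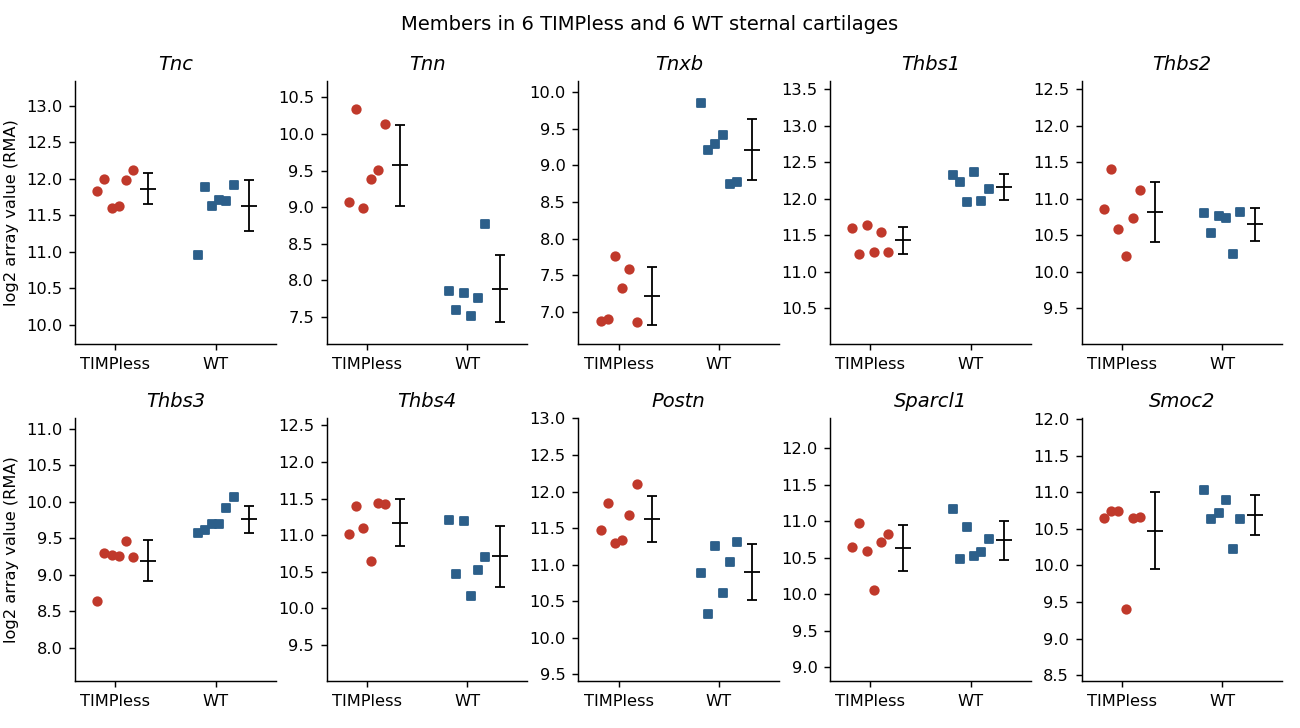
Log2 array value (y axis) of each of the 10 genes in 6 TIMPless (circles) and 6 WT (squares) mice, with the mean and SD beside the points. All panels span the same number of log2 units. Tnn, Tnxb, Thbs1 and Thbs3 have no overlap between genotypes.

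The promoter sequences of the genes without overlap are shown as genomic context, as RefSeq gives them for mouse build GRCm38.p6, each being the 250 bases before an annotated start, read 5′ to 3′ along the gene. The table used here held such windows for 7 of the 10 genes and not for Thbs1, Sparcl1 and Smoc2. The windows are chr1:160153576-160153825 on the minus strand for Tnn, chr17:34670285-34670534 on the plus strand for Tnxb and chr3:89214930-89215179 on the plus strand for Thbs3. Capitals mark the matches to 4 short motifs searched on both strands, the TATA box (TATAAA), the AP-1 site (TGANTCA), the GC box (GGGCGG) and the CCAAT box, whose matches do not overlap each other here.
Tnn: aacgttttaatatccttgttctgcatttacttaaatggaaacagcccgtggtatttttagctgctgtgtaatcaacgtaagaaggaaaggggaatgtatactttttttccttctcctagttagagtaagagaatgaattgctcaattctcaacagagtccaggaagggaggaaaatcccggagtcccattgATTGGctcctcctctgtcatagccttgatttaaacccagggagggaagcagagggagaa
Tnxb: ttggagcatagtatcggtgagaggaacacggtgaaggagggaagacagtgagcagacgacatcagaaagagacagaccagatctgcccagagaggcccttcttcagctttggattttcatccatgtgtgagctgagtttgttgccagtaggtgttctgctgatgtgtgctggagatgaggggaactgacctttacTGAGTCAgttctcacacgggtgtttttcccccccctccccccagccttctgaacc
Thbs3: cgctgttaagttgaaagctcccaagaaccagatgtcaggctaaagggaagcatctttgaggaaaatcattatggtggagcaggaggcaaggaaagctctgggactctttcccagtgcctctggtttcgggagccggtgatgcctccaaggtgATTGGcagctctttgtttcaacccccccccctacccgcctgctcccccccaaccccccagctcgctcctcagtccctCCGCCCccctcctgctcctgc
The windows differ in the motifs they hold. Tnn, higher in TIMPless, has 1 CCAAT box on the opposite strand, 59 bases before the start, in a window of 42% GC. Tnxb, lower in TIMPless, has 1 AP-1 site 55 bases before the start (52.4% GC). Thbs3 has a CCAAT box 98 bases and a GC box 21 bases before the start, both on the opposite strand (58.8% GC). Of 32851 promoter windows of this length, 12.4% hold a TATA box, 6.75% an AP-1 site, 32.7% a GC box and 33.8% a CCAAT box. A match describes letters in this window and says nothing of binding.

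Among the tenascins, the changes ran in both directions. Tnn, the tenascin of bone and periosteum, had values of 8.99, 9.45 and 10.34 (lowest, median and highest, as in the other triplets here) in TIMPless mice, against 7.51, 7.80 and 8.77 in WT mice. Every TIMPless mouse lay above the highest WT mouse, WT replicate 6, whose value stood nearly a whole log2 unit above the rest of its genotype. The means were 9.57 ± 0.56 in TIMPless and 7.88 ± 0.45 in WT (SD, n = 6 mice each). The log2 change was 1.69 (SE 0.26, 95% interval 1.12 to 2.25), or a 3.22-fold difference (adjusted p = 0.00391, limma). Without WT replicates 5 and 6 it was 1.88 (adjusted p = 0.00405, limma). TIMPless mice themselves spread widely in Tnn, with replicates 2 and 6 at 10.34 and 10.14 and the other TIMPless mice at 8.99 to 9.51. The osteocyte genes Dmp1 and Mepe were also called higher in TIMPless, unlike the other 6 osteoblast and osteocyte markers, and their part in the Tnn change was not tested.

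Tnxb, the collagen-binding tenascin of loose and dense connective tissue, changed most of the 10 genes, and downwards. Its values were 6.86, 7.11 and 7.76 in TIMPless mice, against 8.75, 9.25 and 9.85 in WT mice. The highest TIMPless mouse lay nearly a full log2 unit below the lowest WT mouse, and the 2 lowest WT mice were replicates 5 and 6. The means were 7.22 ± 0.40 in TIMPless and 9.21 ± 0.42 in WT, a log2 change of -2.0 (SE 0.21, 95% interval -2.46 to -1.54), 4-fold (adjusted p = 0.000352, limma). Without WT replicates 5 and 6 the log2 change was -2.23 (adjusted p = 0.000349, limma). Genotype accounted for 87.9% of the variance of Tnxb among the 12 mice and for 76.9% of that of Tnn.

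Tenascin-C did not follow either relative. Tnc had values of 11.60, 11.91 and 12.12 in TIMPless mice, against 10.95, 11.70 and 11.91 in WT mice, and 3 of the 6 TIMPless mice lay inside the WT range. Its log2 change was 0.23 (95% interval -0.11 to 0.56; adjusted p = 0.481, limma). The lowest value, in WT replicate 1, lay well apart from the other WT mice at 11.63 to 11.91, and without it the log2 change was 0.09. Genotype accounted for 15.7% of the variance of Tnc.

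**Figure D2:**
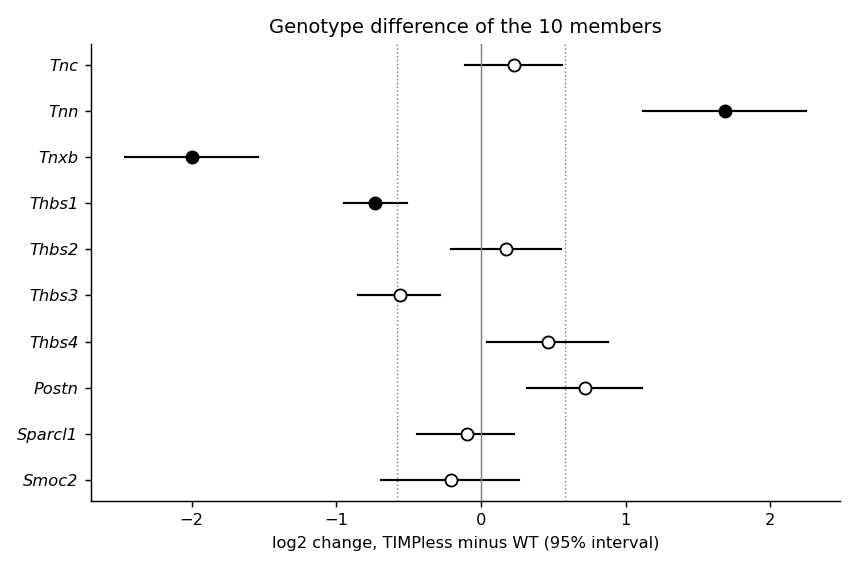
Log2 change (TIMPless minus WT, x axis) of each gene with its 95% interval from limma. Filled points are called, and dotted lines mark a 1.5-fold change. The changes run from -2.0 for Tnxb to 1.69 for Tnn, and the intervals of Tnc, Thbs2, Sparcl1 and Smoc2 include 0.

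Among the thrombospondins, Thbs1 fell and no gene was called higher. Thbs1, the trimeric thrombospondin that can activate TGF-beta, had values of 11.25, 11.41 and 11.64 in TIMPless mice, against 11.95, 12.18 and 12.37 in WT mice. The genotypes did not overlap and both were tight, with an SD of 0.18 in each. The log2 change was -0.73 (SE 0.10, 95% interval -0.95 to -0.51), 1.66-fold (adjusted p = 0.00221, limma), and genotype accounted for 83.1% of its variance. Without WT replicates 5 and 6 it was -0.79 (adjusted p = 0.00674, limma). Its trimeric relative Thbs2, another inhibitor of vessel growth, did not pass the test. Thbs2 had values of 10.22, 10.80 and 11.40 in TIMPless mice, against 10.24, 10.75 and 10.82 in WT mice. Here the TIMPless mice were the more variable, with replicate 4 just under the WT range and replicates 1, 2 and 6 above it, and the log2 change was 0.17 (95% interval -0.21 to 0.55; adjusted p = 0.663, limma). It was 0.05 without TIMPless replicate 2 and 0.29 without TIMPless replicate 4.

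The pentameric thrombospondins differed from each other in the direction of their means. Thbs3, which in mice is expressed in growing cartilage and bone, had values of 8.64, 9.27 and 9.47 in TIMPless mice, against 9.57, 9.70 and 10.06 in WT mice. No TIMPless mouse reached the lowest WT mouse, but the gap between the genotypes was narrow. Its log2 change was -0.56 (SE 0.13, 95% interval -0.85 to -0.28; adjusted p = 0.0348, limma), and the fold of 1.48 stood just under the 1.5 needed for a call. Without WT replicates 5 and 6, the highest WT mice, it was -0.45 (adjusted p = 0.132, limma). Without TIMPless replicate 1, the lowest mouse at 8.64, the log2 change was also -0.45 (adjusted p = 0.0297, limma). Thbs4, prominent in tendon and muscle, had values of 10.64, 11.25 and 11.44 in TIMPless mice, against 10.17, 10.61 and 11.20 in WT mice. The ranges overlapped, WT replicates 1 and 3 lying at 11.20 and 11.19 among the TIMPless mice. Its log2 change was 0.46 (95% interval 0.04 to 0.88; adjusted p = 0.24, limma).

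Periostin stood at the edge of the threshold. Postn had values of 11.29, 11.57 and 12.10 in TIMPless mice, against 10.32, 10.96 and 11.31 in WT mice. Of the 6 TIMPless mice, 5 lay above every WT mouse, and TIMPless replicate 3, at 11.29, lay just under WT replicate 6 at 11.31. The log2 change was 0.72 (SE 0.18, 95% interval 0.32 to 1.11), 1.64-fold, with a limma adjusted p of 0.0519. Without WT replicates 5 and 6 it was 0.85 (adjusted p = 0.0552, limma), and without WT replicate 6 alone 0.80 (adjusted p = 0.0444, limma). Of the 12 fits that left out 1 mouse, only that 1 called Postn. Over these 12 fits the log2 change was 0.60 to 0.80 and the limma adjusted p 0.0444 to 0.109. Postn was also called under some other settings that kept all 12 mice. Its limma adjusted p was 0.0284 without probe sets below the mean array median and 0.0366 with weighted arrays. With a variance prior that followed intensity and resisted outliers it was 0.0432 (limma). Of 24 alternatives in total, 5 called Postn and 19 did not.

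The Sparc relatives gave no call. Sparcl1, also named hevin, had values of 10.06, 10.68 and 10.97 in TIMPless mice, against 10.48, 10.66 and 11.17 in WT mice, with a log2 change of -0.10 (95% interval -0.44 to 0.23; adjusted p = 0.772, limma). Smoc2 had values of 9.41, 10.66 and 10.74 in TIMPless mice, against 10.22, 10.68 and 11.03 in WT mice, with a log2 change of -0.21 (95% interval -0.69 to 0.26; adjusted p = 0.657, limma). In both genes the lowest of all 12 mice was TIMPless replicate 4, without which the log2 change was 0.01 for Sparcl1 and 0 for Smoc2. Genotype accounted for 3.79% of the variance of Sparcl1 and 7.33% of that of Smoc2, the rest lying among mice of a genotype.

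The calls were not all kept when tissue markers entered the fit. With the muscle marker mean as a covariate, the log2 change was 2.03 for Tnn (adjusted p = 0.15, limma) and -0.95 for Thbs1 (adjusted p = 0.0664, limma), neither a call, whereas Tnxb remained called at -2.48. With the adipocyte marker mean as a covariate, none of the 3 was called, at 1.27 for Tnn (adjusted p = 0.46, limma), -1.75 for Tnxb (adjusted p = 0.207, limma) and -0.74 for Thbs1 (adjusted p = 0.272, limma). Genotype itself accounted for 0.67 of the variance of the muscle mean and 0.718 of that of the adipocyte mean. A fit with either covariate therefore had little left to separate them, and the muscle or adipocyte marker level and genotype cannot be told apart here. With the tendon and fibroblast mean as a covariate all 3 remained called, at 1.67 for Tnn, -1.87 for Tnxb and -0.69 for Thbs1.

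**Figure D3:**
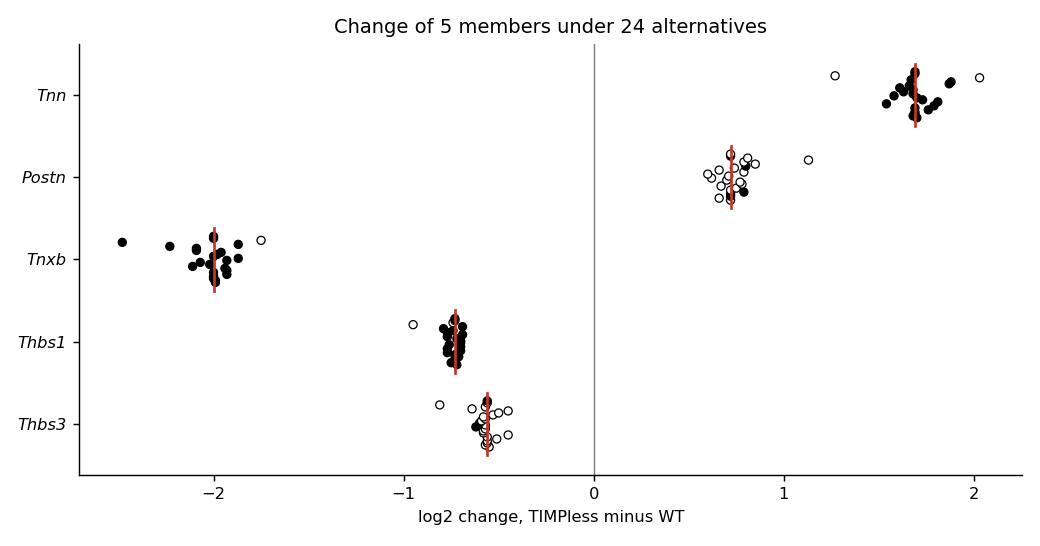
Log2 change (TIMPless minus WT, x axis) of 5 genes under each of 24 other settings, filled where the setting calls the gene and open where it does not, with a bar at the value given in the text. Tnn stays between 1.27 and 2.03 and Tnxb between -2.48 and -1.75.

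Mice of a genotype differed in several of these genes at once. TIMPless replicate 4 was the lowest of its genotype in Thbs2, Thbs4, Sparcl1 and Smoc2, and on average lay 0.35 log2 units below its genotype's mean over the 10 genes. Its tendon and fibroblast marker mean was 8.14, against 8.65 to 8.78 in the other TIMPless mice. The part of that marker level in these 4 values was not tested. WT replicate 6 was the highest of its genotype in Tnc, Tnn, Thbs2, Thbs3 and Postn, and WT replicate 1 in Tnxb, Thbs4, Sparcl1 and Smoc2. WT replicate 1 was also the lowest in Tnc and Thbs3, and TIMPless replicate 2 was the highest of its genotype in Tnn, Thbs2 and Sparcl1 and shared the highest value in Smoc2 with replicate 3. No mouse of these deviated in 1 direction in all 10 genes, as the plot of deviations shows.

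**Figure D4:**
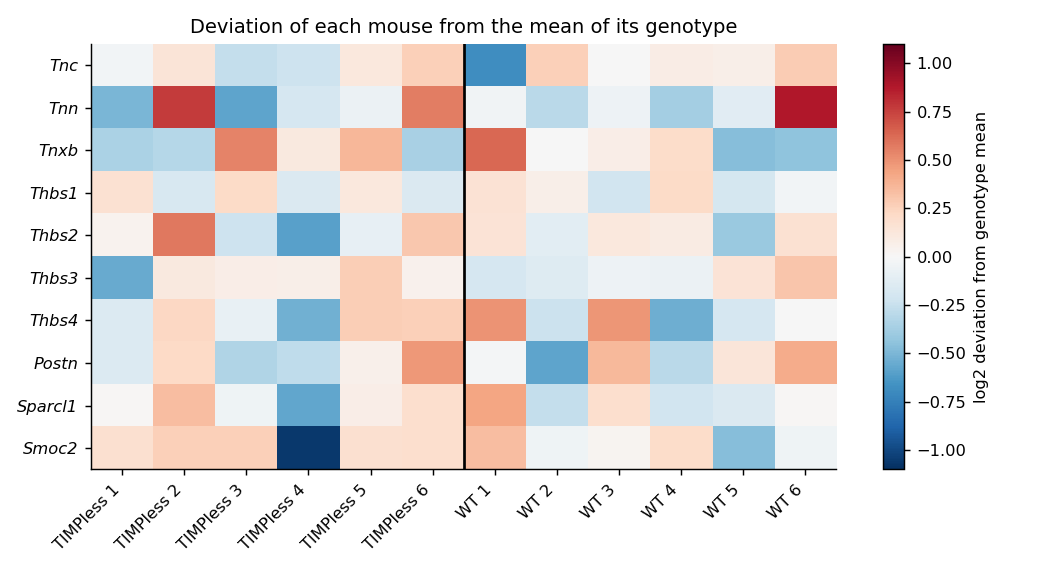
Deviation in log2 units of each mouse (columns, TIMPless to the left of the line and WT to the right) from the mean of its genotype for each gene (rows). TIMPless replicate 4 is lowest in Thbs2, Thbs4, Sparcl1 and Smoc2, and WT replicate 6 is highest in Tnn.

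After the genotype means were removed, 45 pairs of genes were compared over the 12 mice (permutation within genotype, 2-sided, adjusted over the pairs). Thbs4 and Sparcl1 varied together most closely, with a Pearson r of 0.89 (permutation p = 0.00023, adjusted p = 0.0103) and a Spearman rho of 0.90 (permutation p = 0.00039, adjusted p = 0.0175). The r was 0.91 among TIMPless mice and 0.91 among WT mice, and 0.88 without the 2 mice farthest from the median of Thbs4. Tnn and Postn, both genes of periosteum, gave an r of 0.77 (permutation p = 0.00368, adjusted p = 0.0571) and a rho of 0.84 (permutation p = 0.00173, adjusted p = 0.0389). Their r stayed at 0.77 without the 2 mice farthest in Tnn, and was 0.87 among TIMPless mice and 0.69 among WT mice. Thbs2 and Sparcl1 gave an r of 0.79 (adjusted permutation p = 0.0571), which became 0.56 without the 2 farthest mice. By Pearson's r, 8 pairs passed an unadjusted p under 0.05 and 1 passed the adjusted one, and r was above 0 in 28 pairs and below 0 in 16. All values of a mouse come from 1 array and 1 dissection.

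**Figure D5:**
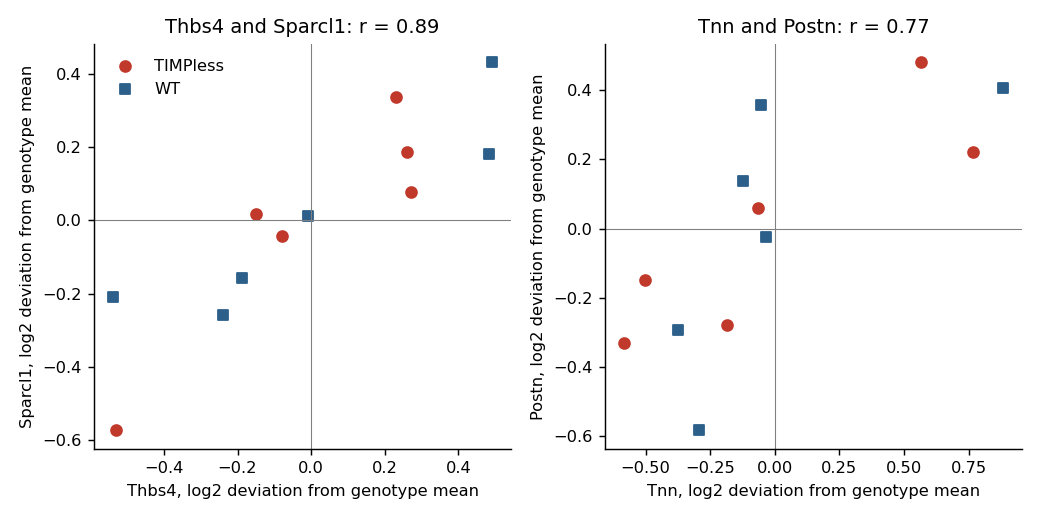
Deviations from the genotype mean, in log2 units, of Thbs4 (x) against Sparcl1 (y), left, and of Tnn (x) against Postn (y), right, in TIMPless (circles) and WT (squares) mice. The r is 0.89 on the left and 0.77 on the right, over 12 mice.

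Outside the 10 genes, the deviations most like those of the 3 called genes, out of 12736 genes above the array medians, came from genes of other families. Tnn was most like Slc25a15 (r = 0.94 over the 12 mice), St6galnac6 (0.93) and Endod1 (0.92). Tnxb was most like Rasgrf2 (0.96), Tgfbr3 (0.95), which encodes the TGF-beta coreceptor betaglycan, and Nfia (0.94), and Rasgrf2 was itself lower in TIMPless by a log2 change of -0.73 (adjusted p = 0.00464, limma). Thbs1 was most like Cnfn (0.90), Lancl1 (0.89) and Rnu11 (0.88). These are the highest of many correlations and are given without a test.

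The wider set of 21 measured matricellular genes (Tnr, Comp, Sparc, Smoc1 and the Spock, Ccn, spondin and galectin genes among them) gave 0 calls, with a median log2 change of 0.02. At an unadjusted limma p under 0.05 there were 11, where 20.5% of all genes passed, and 2 passed the adjusted p but not the fold. Of all genes, 2.3% were called and 4.93% passed the adjusted p, and nothing is read from these counts. The largest changes of the set, named after their values were seen, missed the adjusted p. They were log2 changes of -1.41 for Spon2 (adjusted p = 0.0645, limma), 0.71 for Ccn5 (adjusted p = 0.102, limma) and -0.68 for Ccn6 (adjusted p = 0.0727, limma). Comp, the pentameric thrombospondin of cartilage, had a mean of 11.99 ± 0.10 in TIMPless and 12.51 ± 0.09 in WT, a log2 change of -0.52 (adjusted p = 0.00138, limma), 1.43-fold, with no overlap. Ccn2, connective tissue growth factor, had a mean of 12.38 ± 0.20 in TIMPless and 12 ± 0.12 in WT, a log2 change of 0.39 (adjusted p = 0.0448, limma), 1.31-fold. Without WT replicates 5 and 6 the log2 change was -0.52 for Comp (adjusted p = 0.00726, limma) and 0.34 for Ccn2 (adjusted p = 0.143, limma). Under some alternatives genes of this set were called lower in TIMPless, 2 with the filter on dim probe sets and 1 by Storey's q value or without TIMPless replicate 2, 3 or 5, and with no fold threshold 1 was higher and 1 lower.

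Of 20 measured receptors of tenascins, thrombospondins and periostin, 1 was called higher and 0 lower in TIMPless, with a median log2 change of 0.15. The shares over all genes were 0.875% higher and 1.43% lower, and nothing is read from these counts. The called gene was Ptprz1, a receptor phosphatase that binds tenascin-C, with a mean of 9.18 ± 0.11 in TIMPless and 8.41 ± 0.46 in WT and a log2 change of 0.78 (adjusted p = 0.0294, limma). It lost the call under 11 of 24 alternatives, among them the fit without WT replicates 5 and 6 (0.83, adjusted p = 0.069, limma). Chosen after their values were seen, Itga8, an integrin chain that can bind tenascin-W, was lower in TIMPless (6.69 ± 0.11) than in WT (7.27 ± 0.15), with a log2 change of -0.57 (adjusted p = 0.00213, limma; 1.49-fold), and Itga6 was higher in TIMPless (9.56 ± 0.24) than in WT (9.08 ± 0.16), with a log2 change of 0.49 (adjusted p = 0.0373, limma). The thrombospondin-1 receptors gave no call. Cd36 had means of 9.87 ± 0.35 in TIMPless and 10.59 ± 0.47 in WT (adjusted p = 0.0946, limma), and Cd47 had means of 10.86 ± 0.30 in TIMPless and 10.56 ± 0.13 in WT (adjusted p = 0.238, limma). Cd36 is also expressed by adipocytes, and their part in its lower mean was not tested.

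Of 16 measured genes of collagen fibrils and fibronectin, to which tenascins and periostin bind, 2 were called higher and 0 lower in TIMPless, with a median log2 change of 0.11. Over all genes the shares called were 0.875% higher and 1.43% lower, and nothing is read from these counts either. Lox, the lysyl oxidase that crosslinks collagen, had a mean of 11.67 ± 0.37 in TIMPless and 10.66 ± 0.16 in WT, a log2 change of 1.01 (adjusted p = 0.00339, limma). Lum, the fibril-binding proteoglycan lumican, had a mean of 12.09 ± 0.25 in TIMPless and 11.15 ± 0.16 in WT, a log2 change of 0.94 (adjusted p = 0.000946, limma). Both lost the call with the muscle or the adipocyte mean as a covariate and under no other alternative. The fibril collagens Col1a1, Col1a2 and Col3a1 were not called, with log2 changes of 0.12, 0.21 and -0.08.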

How the data were processed

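Sternal cartilage RNA of 6 TIMPless and 6 WT mice was measured with 1 array per mouse. The deposited log2 values were made by the authors by robust multiarray average, which corrects background, equalizes the arrays' distributions and summarizes probes (Partek version 6.6 in the submitters' processing notes). A change shared by most genes would not be seen. A genome build was not given in the sources used here. The platform annotation named 23521 of the 41345 probe sets for 1 gene and 1820 for several, leaving 16004 unnamed. Each gene was measured by its brightest single-gene probe set. The genotype difference was fitted in R 4.3.3 with limma 3.58.1 (lmFit and eBayes, genotype as the only term, 10 residual and 2.93 prior degrees of freedom), with Benjamini-Hochberg adjustment across every probe set. The script was tested on simulated data. Marker lists were compared by exact permutation of the mice, and pairs of genes by 100000 permutations within genotype. Precision rests on the number of mice, since arrays have no read depth.

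The genes and lists were chosen with earlier results of these data known. Named genes were the 10 members, the Timp genes, called genes of each wider list (the 2 of smallest p where none was called), and the 3 genes most like each called member. Outside this rule, Spon2, Ccn5, Ccn6, Itga6, Itga8, Cd36, Cd47, Col1a1, Col1a2, Col3a1 and single marker genes were named after their values were seen. Alternatives were median centring, quantile normalization, a filter on dim probe sets, other variance models, array weights, the replicate number as a block, each mouse left out, WT replicates 5 and 6 left out together, marker means as covariates, Storey's q value and no fold threshold.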

Additional observations from a re-analysis of the deposited data

Results flagged for a closer look

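In 20 groups of 6 values (10 genes in each genotype), Dixon's test at its 95% critical value marked 4 mice as far from the others of their genotype. Chance marks about 1 in 20 groups. Smoc2 was 9.41 in TIMPless replicate 4, against 10.65 to 10.74 in the other TIMPless mice. Thbs3 was 8.64 in TIMPless replicate 1, against 9.24 to 9.47 in the others. Tnn was 8.77 in WT replicate 6, against 7.51 to 7.85 in the other WT mice, and remained called without that mouse. Tnc was 10.95 in WT replicate 1, against 11.63 to 11.91 in the others.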

How the results depend on the processing

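The number of mice, 6 per genotype, limits the precision, and the muscle and adipocyte marker means were confounded with genotype. Tnn, Tnxb and Thbs1 were called in each of 12 fits that left out 1 mouse, with log2 changes of 1.54 to 1.87, -2.11 to -1.87 and -0.77 to -0.69. The count of the 10 genes called, 3, was 3 to 4 with 1 mouse left out, 1 with the muscle covariate and 0 with the adipocyte covariate. Thbs3 was called in 3 of 24 alternatives and Postn in 5. The count of probe sets called, 665, was 515 to 664 with 1 mouse left out, 423 with the replicate number as a block, 361, 55 and 15 with the tendon, muscle and adipocyte covariates, and 1449 with no fold threshold.

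Among genes that were not called, the log2 change turned for Tnc with the adipocyte covariate (-0.26), for Sparcl1 without TIMPless replicate 4 (0.01, in a range of -0.17 to 0.01 over the mice left out) and with the tendon (0.15) and adipocyte (0.25) covariates, and for Smoc2 with the tendon (0.19) and adipocyte (0.02) covariates. The difference in the tendon and fibroblast mean, -0.25, was -0.30 to -0.16 with 1 mouse left out (exact permutation p = 0.0455 without TIMPless replicate 2, 0.0325 without WT replicate 5, 0.0216 without WT replicate 6 and 0.0584 with all mice) and -0.35 without WT replicates 5 and 6 together (exact permutation p = 0.00476). That of the neutrophil mean, 0.75, was 0.55 to 1.09, the highest without TIMPless replicate 2 (exact permutation p = 0.0325, against 0.165 with all mice). The causes were not tested.

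Mice with the same replicate number correlated at -0.21 to -0.01 in 6 of 6 pairs, so the numbers did not pair them. With the replicate block the same 3 of the 10 genes were called. Averaging all probe sets of a gene gave nothing new, since each had 1.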

Other observations

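The 22 nearest or overlapping genes of the 10 on the GRCm38.p6 chromosomes, chosen after the members' values were seen, included 2 that were called. Of all genes, 2.3% were called, and nothing is read from the count. Only genes with a probe set of their own were considered, and Thbs2 and Smoc2 are themselves among the 22. C4b, a complement gene next to Tnxb, had a log2 change of 1.29 (adjusted p = 0.00404, limma), opposite in sign to Tnxb, and its close copy C4a could share its signal. Trpc4, a calcium channel gene next to Postn, had a log2 change of -0.67 (adjusted p = 0.0276, limma). Tnr, the tenascin next to Tnn on chromosome 1, lay below the array medians, with a log2 change of 0.20 (adjusted p = 0.153, limma). Thbs2 and Smoc2 are neighbours on chromosome 17 and neither was called.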
